A study of Callithrix jacchus with 6 samples.

Results

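The 7 genes described here belong to the cholesterol synthesis pathway: the enzymes ACAT2, HMGCS1, MVK, SQLE and MSMO1, and the regulators INSIG1 and SREBF2. They were found by their symbol among the 29320 genes of the count tables, with 1 row each and their Ensembl IDs as the files give them: ENSCJAG00000011777 for ACAT2, ENSCJAG00000001303 for HMGCS1, ENSCJAG00000009849 for MVK, ENSCJAG00000012744 for SQLE, ENSCJAG00000009301 for MSMO1, ENSCJAG00000018517 for INSIG1 and ENSCJAG00000002378 for SREBF2. The cells were taken from hippocampi of the common marmoset, Callithrix jacchus, and the series title gives the animals as aged. The 3 sevoflurane libraries followed 6 h of this inhaled anaesthetic, and the 3 oxygen libraries followed 6 h of oxygen alone. No genotype, strain, age or sex is given for either group, and no label ties a replicate to an animal of its own, so each p-value measures the spread between these libraries, which may be technical.

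Cells build cholesterol from acetyl-CoA through mevalonate, squalene and a series of sterols. The transcription factor SREBP2, encoded by SREBF2, is held in the endoplasmic reticulum by INSIG proteins while sterols are plentiful, and when sterols fall it moves to the nucleus and raises most genes of the pathway, INSIG1 among them. The adult brain makes its own cholesterol: oligodendrocytes use it for myelin, and astrocytes are known to pass it to neurons on apolipoprotein E particles.

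The 6 libraries held 7103 to 8577 cell barcodes and 41164947 to 47886816 unique molecular identifiers (UMIs, each a counted RNA molecule), and 44344 of 46582 barcodes remained after doublet removal. Pairs of libraries shared 13 to 27 barcode sequences. Clusters were named from marker genes, with "-like" for a name that rests on markers. Astrocyte-like cells (4901), oligodendrocyte-like cells (8101), oligodendrocyte precursor (OPC)-like cells (1962), microglia-like cells (1838), endothelial-like cells (740), glutamatergic neuron-like cells (17713) and GABAergic neuron-like cells (3770) had at least 20 cells in each library and were compared. The microglia-like class rests on 7 detected markers and had INPP5D, TBXAS1 and RUNX1 among its leading genes. Sevoflurane replicate 3 stood apart: it supplied 90.2% of the cells of an oligodendrocyte-like cluster, and 79.4% and 89.7% of the cells of a pair of glutamatergic neuron-like clusters. The unnamed cells were 6.06%, 6.1% and 9.70% of the sevoflurane libraries and 5.34%, 3.8% and 9.62% of the oxygen libraries. FKBP5 is the glucocorticoid target named in the title of this same series, so its level is no independent check of the treatment. It rose in microglia-like cells (log2 fold change 2.26 ± 0.18 SE, adjusted p = 0.000801, edgeR quasi-likelihood test). It passed in no other class. The estimates were still positive in oligodendrocyte-like (1.17 ± 0.16), astrocyte-like (1.02 ± 0.22), OPC-like (0.76 ± 0.19) and endothelial-like cells (2.06 ± 0.39). Their adjusted p were 0.1135, 0.357, 0.309 and 0.99955 in that order (edgeR). FKBP5 stood at 0.39 ± 0.24 in GABAergic neuron-like cells (adjusted p = 0.589, edgeR) and −0.05 ± 0.41 in glutamatergic neuron-like cells (adjusted p = 0.988, edgeR).

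Levels are given first for the 7 compared classes over all 6 libraries as CPM (counts per 1000000), the UMIs of a gene for every 1000000 UMIs of its class in a library, as mean ± SD (n = 6), and are a description without a test. ACAT2, the cytosolic thiolase that makes acetoacetyl-CoA at the entry of the pathway (not the cholesterol acyltransferase SOAT2, which shares this name as an alias), was highest in astrocyte-like cells at 25.8 ± 3.55 CPM. Oligodendrocyte-like cells followed at 25 ± 6.90 CPM, and glutamatergic neuron-like cells were lowest at 13.8 ± 3.62 CPM. The ranges of every pair of neighbours in this order overlapped. HMGCS1, which makes HMG-CoA from the product of ACAT2, was also highest in astrocyte-like cells, at 12.6 ± 5.59 CPM, before GABAergic neuron-like cells at 11.2 ± 5.66 CPM, and it was lowest in microglia-like cells at 5.15 ± 2.93 CPM.

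MVK, the kinase that phosphorylates mevalonate, had a different order from the other enzymes. It was highest in GABAergic neuron-like cells, at 36.4 ± 12.4 CPM, above astrocyte-like cells (17.9 ± 5.61 CPM) in 6 of 6 libraries. The range over libraries, 24.4 to 54.2 CPM, overlapped that of astrocyte-like cells, 13 to 28.1 CPM. The other compared classes averaged between 9.0 and 17.9 CPM, and neighbours among them could not be separated.

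The later enzymes were highest in glia. SQLE, the squalene epoxidase and a controlled step of the sterol branch, had 50.6 ± 7.63 CPM in oligodendrocyte-like cells, 45.3 ± 15.3 CPM in astrocyte-like cells and 40.9 ± 14.8 CPM in microglia-like cells. Glutamatergic neuron-like cells had the least SQLE, 26.4 ± 7.09 CPM. MSMO1, an oxidase that removes methyl groups from sterol intermediates, had 43.9 ± 17.3 CPM in astrocyte-like cells and 33.7 ± 3.16 CPM in oligodendrocyte-like cells, and 15.5 ± 5.09 CPM in microglia-like cells. Neighbours in both orders overlapped.

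Both regulators were highest in the same pair of glial classes. INSIG1 had 18.5 ± 2.95 CPM in oligodendrocyte-like cells and 14.5 ± 4.83 CPM in astrocyte-like cells, and astrocyte-like cells were above GABAergic neuron-like cells (8.58 ± 5.24 CPM) in 6 of 6 libraries. INSIG1 was close to absent from OPC-like cells: these held 0, 0 and 2 UMIs in the sevoflurane libraries and 4, 2 and 0 UMIs in the oxygen libraries. A count of 0 there allows up to 3.03 and 3.49 CPM in sevoflurane replicates 1 and 2 and up to 2.86 CPM in oxygen replicate 3, for counting error only. INSIG1 was also low in microglia-like cells (2.88 ± 4.63 CPM), which held 7 of its UMIs over the 6 libraries, beside 8 in OPC-like cells. SREBF2 had 181 ± 33.3 CPM in astrocyte-like cells, above oligodendrocyte-like cells (141 ± 14.8 CPM) in 6 of 6 libraries though the ranges overlapped, and 63.6 ± 14.9 CPM in OPC-like cells, the lowest of the 7 compared classes.

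**Figure D1:**
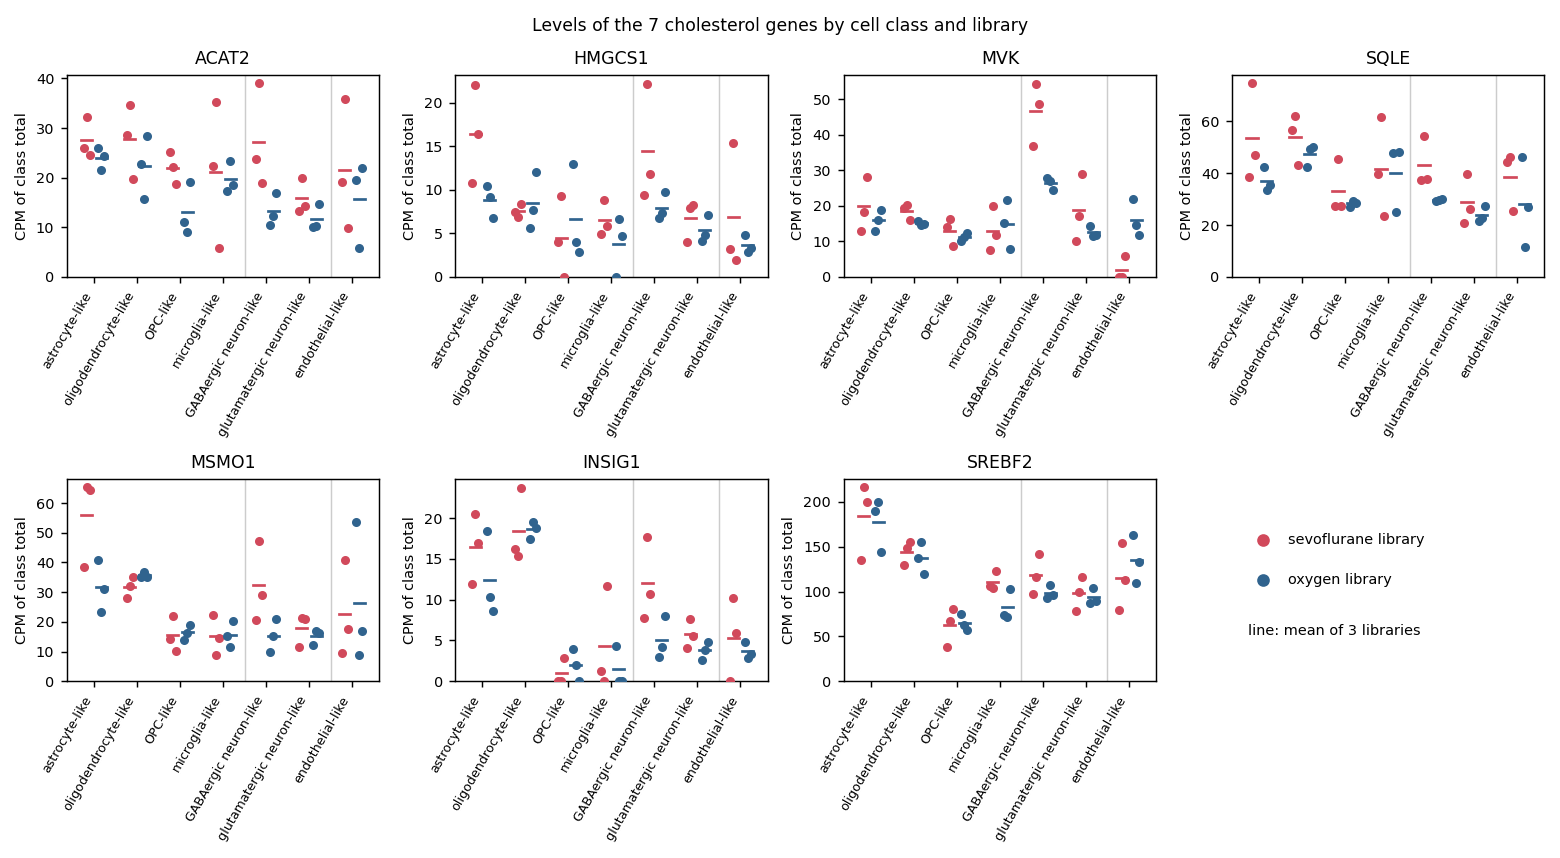
Level of each of the 7 genes (CPM of the class total, linear axes from 0) in the 7 compared classes, with 1 point per library, sevoflurane left of oxygen, and a line at the mean of 3 libraries. MVK is highest in GABAergic neuron-like cells, and the other genes are highest in astrocyte-like or oligodendrocyte-like cells. INSIG1 is near 0 in OPC-like cells and also low in microglia-like cells.

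The comparison of glia with neurons depended on the scale. Glia were taken as the mean of the astrocyte-like, oligodendrocyte-like, OPC-like and microglia-like classes in a library, and neurons as the mean of both neuron classes. On the CPM scale, glia exceeded neurons in 6 of 6 libraries for SQLE (ratio 1.34), ACAT2 (ratio 1.36) and SREBF2 (ratio 1.18), and in 5 of 6 for MSMO1 (ratio 1.43) and INSIG1 (ratio 1.52). HMGCS1 was split, with glia higher in 3 of 6 libraries (ratio 0.947), and MVK was lower in glia in every library, at a ratio of 0.606. Counted per cell, neuron-like cells carried more of all 7 transcripts, with glia-to-neuron ratios between 0.181 for MVK and 0.435 for INSIG1. The mean ratio thus turned for SQLE, ACAT2, SREBF2, MSMO1 and INSIG1, while those of MVK and HMGCS1 were below 1 on both scales. Only INSIG1 was higher per cell in glia in any library, in 1 of 6. Neuron-like cells held more UMIs in total, with medians of 5925 to 9520 UMIs in glutamatergic neuron-like cells and 1551 to 2186 UMIs in oligodendrocyte-like cells over the libraries. The RNA content of a cell and the share of it that was captured cannot be told apart here.

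**Figure D2:**
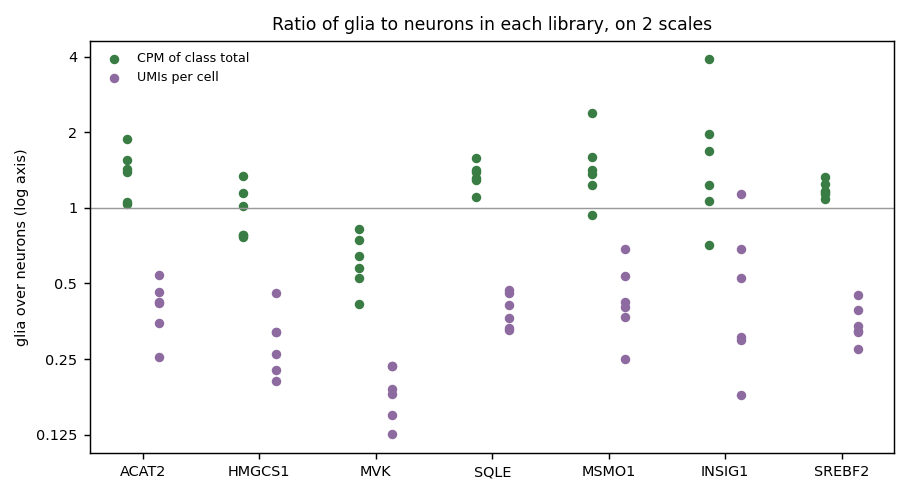
Ratio of glia to neurons for each of the 7 genes on a log axis, with 1 point per library (n = 6), computed from CPM of the class total (green) and from UMIs per cell (purple). Most green points lie above 1 except for MVK, part of HMGCS1 and 1 library each of MSMO1 and INSIG1, and all purple points lie below 1 except 1 for INSIG1.

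Across the 42 values of 7 classes in 6 libraries, likeness was measured by Pearson correlation of log2(CPM + 1), given here as a description since the values share libraries and depth. Among 10596 candidate genes, ACAT2 was the gene most like SQLE, and SQLE the gene most like ACAT2 (r = 0.778). INSIG1 was the gene most like SREBF2 (r = 0.751), and SREBF2 the gene most like MSMO1 (r = 0.697). After SQLE, the genes most like ACAT2 were FGF7 (r = 0.721) and HSPA9 (r = 0.691), and after ACAT2 those most like SQLE were AARS1 (r = 0.698) and RBM48 (r = 0.678). INSIG1 was most like FAM171A1 (r = 0.788) and CORO2B (r = 0.772), SREBF2 after INSIG1 was most like GRM3 (r = 0.748) and TTC23 (r = 0.740), and MSMO1 after SREBF2 was most like FGFR2 (r = 0.692) and ENPP5 (r = 0.691). HMGCS1 was most like OTUB1 (r = 0.666), ANKRD9 (r = 0.657) and CCDC136 (r = 0.617). MVK had r between 0.0421 and 0.270 with the other 6 genes, and was most like JRK (r = 0.788), with BBS1 (r = 0.780) also among its closest genes. Some pairs without MVK were about as low: INSIG1 with ACAT2 (r = 0.166) and SQLE (r = 0.298), and ACAT2 with SREBF2 (r = 0.279).

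Sevoflurane was then compared with oxygen in each class, on counts summed per library. Of 49 gene and class pairs, 38 passed the filter on low counts and were tested, and 0 were called at an adjusted p under 0.05 by edgeR. In GABAergic neuron-like cells 15 of 13105 genes were called (0.114%). At an unadjusted p under 0.05, 6 of the 7 genes were higher with sevoflurane in GABAergic neuron-like cells, where 6.14% of all genes tested were, and 2 were higher in astrocyte-like cells, where 3.36% of all genes were. In the other classes none of the 7 was higher at that level, against 3.41% of all genes in oligodendrocyte-like, 3.1% in OPC-like, 3.06% in microglia-like, 3.74% in glutamatergic neuron-like and 2.39% in endothelial-like cells.

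**Figure D3:**
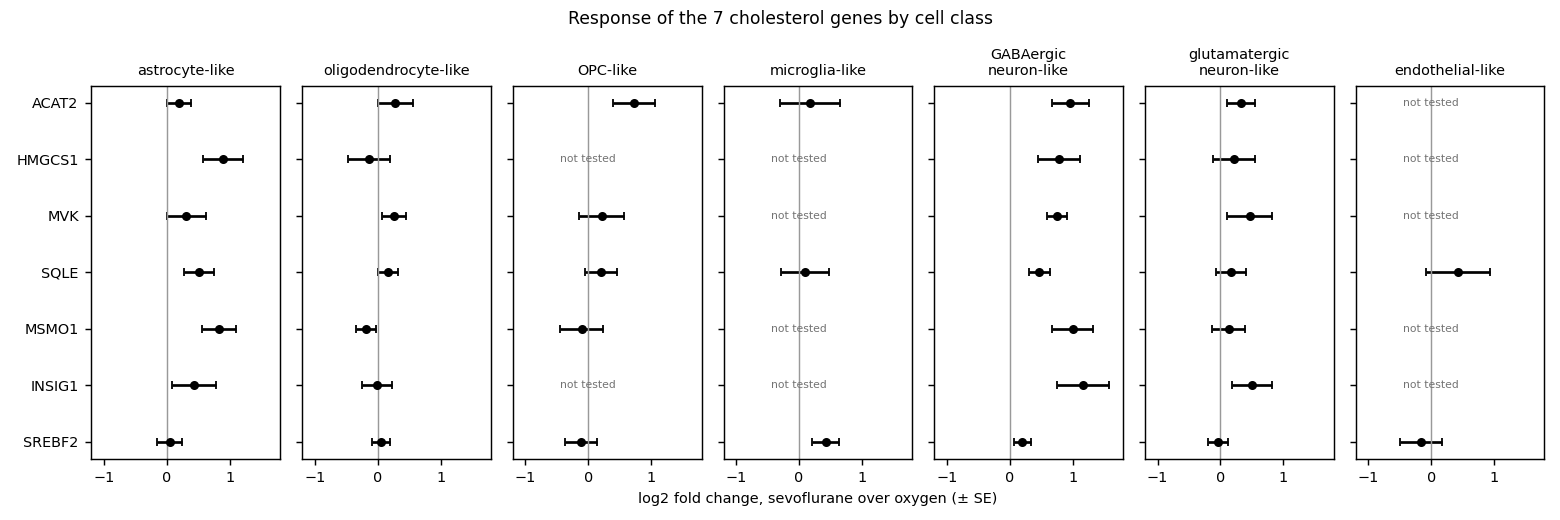
Log2 fold change of sevoflurane over oxygen for each of the 7 genes in the 7 compared classes, with bars of ± 1 SE (3 libraries against 3). Estimates are positive for all 7 genes in GABAergic neuron-like and astrocyte-like cells and lie around 0 in oligodendrocyte-like cells, and none passed the adjusted threshold.

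In GABAergic neuron-like cells the estimates of all 7 genes were positive, as for 50.5% of all genes tested. MVK had 36.9, 54.2 and 48.5 CPM with sevoflurane and 27.7, 26.9 and 24.4 CPM with oxygen. ACAT2 had 23.7, 39.1 and 19.0 CPM with sevoflurane and 10.4, 12.3 and 17.0 CPM with oxygen. SQLE had 37.4, 54.5 and 37.8 CPM with sevoflurane and 29.3, 29.6 and 30.03 CPM with oxygen. For these 3 genes every sevoflurane library was above every oxygen library, as for 12.8% of all genes tested in this class. The log2 fold changes were 0.75 ± 0.16 for MVK (SE, adjusted p = 0.129), 0.96 ± 0.29 for ACAT2 (adjusted p = 0.242) and 0.47 ± 0.16 for SQLE (adjusted p = 0.314), by edgeR. MVK passed with DESeq2 (adjusted p = 0.0346), which called 1.5% of all genes tested, and with edgeR without a filter on low counts (adjusted p = 0.0371), where 1.06% were called. Its adjusted p reached 0.505 among the other alternatives.

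The other enzymes and the regulators overlapped between the groups. MSMO1 had 20.7, 47.1 and 29.2 CPM with sevoflurane and 9.97, 15.2 and 20.9 CPM with oxygen. HMGCS1 had 9.42, 22.1 and 11.9 CPM with sevoflurane and 6.72, 7.30 and 9.79 CPM with oxygen. In both genes the lowest sevoflurane library lay just under the highest oxygen library, and the log2 fold changes were 1.00 ± 0.33 for MSMO1 (adjusted p = 0.276, edgeR) and 0.78 ± 0.33 for HMGCS1 (adjusted p = 0.411, edgeR). INSIG1, which rests on 14 to 59 UMIs per library, had 7.81, 17.6 and 10.8 CPM with sevoflurane and 3.03, 4.22 and 8.05 CPM with oxygen. Its log2 fold change, 1.16 ± 0.41, was the highest estimate of the 7 in this class and did not pass (adjusted p = 0.320, edgeR). SREBF2 had 97.2, 116 and 142 CPM with sevoflurane and 92.7, 108 and 95.7 CPM with oxygen, with a log2 fold change of 0.20 ± 0.14 (adjusted p = 0.651, edgeR).

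Summed over the 7 genes, GABAergic neuron-like cells had 233, 351 and 299 CPM with sevoflurane and 180, 203 and 206 CPM with oxygen, a ratio of means of 1.5. The median log2 fold change of the 7 was 0.78, beside 0.00323 over all 13105 genes tested in the class. The 7 genes were chosen with earlier results of these data known, so this is a description and no test of them as a set. Sevoflurane replicate 2, the library with the highest level of each of the 7 genes except SREBF2 there, had the fewest GABAergic neuron-like cells (330) and the highest median depth in this class, 8673 UMIs per cell, and it had the highest summed level of the 7 genes in 5 of the 7 classes. Without it, 2 of the 7 genes were higher at an unadjusted p under 0.05 in place of 6, and without oxygen replicate 1 or 2 the count was 3; every estimate stayed positive when any library was left out. Marker sums of other cells also differed in this class: the 6 fibroblast markers summed to 8.33 to 13 CPM with sevoflurane and 18.2 to 26.9 CPM with oxygen. The 15 microglia markers, of which TMEM119 was not in the table, summed to 23.4 to 48.5 CPM with sevoflurane and 50.5 to 69.4 CPM with oxygen. The 12 astrocyte markers summed to 305 to 396 CPM with sevoflurane and 391 to 689 CPM with oxygen, ranges that overlapped. None of the markers measured in these 3 lists was at 0. The 6 T cell markers, of which CD3D was at 0, went the other way, at 9.94 to 17.5 CPM with sevoflurane and 5 to 6.91 CPM with oxygen. Sums of the remaining lists of other cells overlapped between the groups. The 10 GABAergic markers summed to 1391 to 1630 CPM with sevoflurane and 1555 to 1676 CPM with oxygen. The part of depth, of that library and of free RNA or cells of other types in these estimates was not tested.

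**Figure D4:**
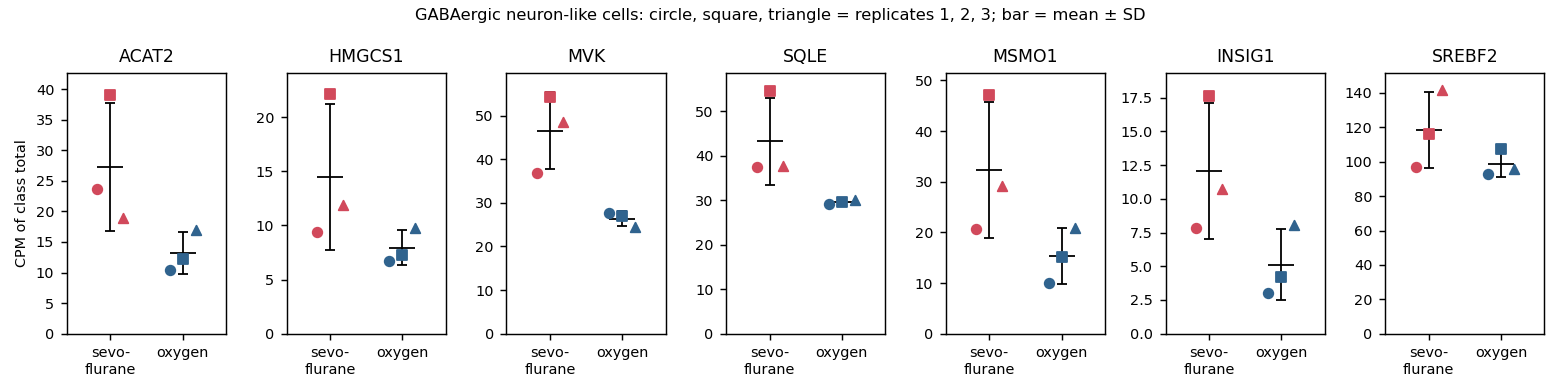
Levels of the 7 genes in GABAergic neuron-like cells (CPM of the class total, linear axes from 0), with sevoflurane left of oxygen, 1 symbol per replicate number and a bar for the mean ± SD of 3 libraries. The groups are apart for ACAT2, MVK and SQLE, and replicate 2 (squares) is the highest sevoflurane library for every gene except SREBF2.

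The class held 4 clusters, called here by the 2 leading genes with a symbol, each with at least 20 cells in every library, and they were also tested one by one, a choice made after the class values were seen. In the cluster led by ADARB2 and IL1RAPL2 (1299 cells) the 7 genes summed to 242, 421 and 397 CPM with sevoflurane and 204, 212 and 239 CPM with oxygen. In that led by GRIK1 and NXPH1 (926 cells) the sums were 210, 321 and 243 CPM with sevoflurane and 173, 216 and 212 CPM with oxygen. In that led by EYS and BTBD11 (821 cells) the sums were 230, 243 and 250 CPM with sevoflurane and 166, 198 and 161 CPM with oxygen. The fourth, led by FGF13 and TACR1 (724 cells), had 258, 379 and 352 CPM with sevoflurane and 164, 172 and 194 CPM with oxygen. The sums overlapped between groups in the GRIK1 and NXPH1 cluster and not in the other 3. In the ADARB2 and IL1RAPL2 cluster the nearest libraries had 242 and 239 CPM. How often sums of other genes are apart in these clusters was not tested. MVK, MSMO1, ACAT2, SQLE and SREBF2 had positive estimates in 4 of 4 clusters, INSIG1 in the 2 clusters where it could be tested, and HMGCS1 in 1 of 2. No gene of the 7 was called by edgeR in any of the 4 clusters, in which 0.0299%, 0.011%, 0% and 0.393% of all genes were called, in the order given. At an unadjusted p under 0.05, 5, 3, 0 and 5 of the 7 were higher in them, and 4.4%, 3.28%, 4.29% and 5.88% of all genes tested.

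In glutamatergic neuron-like cells the groups overlapped. The 7 genes summed to 142, 214 and 220 CPM with sevoflurane and 151, 174 and 172 CPM with oxygen, and 6 of 7 estimates were positive, as for 53.1% of the 17306 genes tested, of which 0.00578% were called. The median of the 7 was 0.22 (log2), beside 0.0202 over all genes. MVK had 10.0, 17.2 and 28.9 CPM with sevoflurane and 14.3, 11.5 and 11.8 CPM with oxygen. Its log2 fold change of 0.46 ± 0.36 (adjusted p = 0.796, edgeR) was 0.012 without sevoflurane replicate 3. The clusters of this class were unevenly filled: that led by TSHZ2 and MLIP held 63, 38 and 15 cells in the sevoflurane libraries and 458, 519 and 357 cells in the oxygen libraries. Sevoflurane replicate 3 supplied 0 of the 7045 cells of the cluster led by LAMA3 and CCDC85A. It supplied 1 of 2138 cells of that led by NRP1 and USH1C and 6 of 2351 of that led by PIEZO2 and ABI3BP. Over pooled libraries MVK was at 12 CPM in the LAMA3 and CCDC85A cluster. It was at 32.3 CPM in that led by RORB and FSTL4, 89.7% of whose cells came from sevoflurane replicate 3. The part of this uneven filling in the values was not tested. MSMO1 stood at 0.13 ± 0.26 (log2), and at −0.11 without the clusters that are mostly sevoflurane replicate 3. The only glutamatergic neuron-like cluster with at least 20 cells in every library (1337 cells, 0.871% of all genes called) had MVK at a log2 fold change of 0.69 ± 0.23 (adjusted p = 0.220, edgeR) and HMGCS1 at −0.98 ± 0.40 (adjusted p = 0.326, edgeR). In that cluster 2 of 6 tested estimates were positive, with a median of −0.27 (log2), and SQLE, MSMO1 and SREBF2 were among the negative ones. There HMGCS1 had 4.78, 5.16 and 5.89 CPM with sevoflurane and 7.15, 9.48 and 15.7 CPM with oxygen.

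In astrocyte-like cells, where 0.018% of 11114 genes were called, all 7 estimates were positive, as for 49.6% of all genes, with a median of 0.43 (log2), beside −0.00291 over all genes tested. HMGCS1 had 10.8, 22.0 and 16.4 CPM with sevoflurane and 10.5, 9.22 and 6.77 CPM with oxygen, the only gene of the 7 without overlap in this class, as for 6.16% of all genes. MSMO1 had 38.5, 65.3 and 64.5 CPM with sevoflurane and 40.9, 23.4 and 31.1 CPM with oxygen, so that sevoflurane replicate 1 lay within the oxygen range. Neither passed (adjusted p = 0.627 for HMGCS1 and 0.589 for MSMO1, edgeR). SQLE had 38.5, 74.9 and 46.9 CPM with sevoflurane and 42.4, 33.7 and 35.5 CPM with oxygen. SREBF2 had 135, 217 and 200 CPM with sevoflurane and 190, 199 and 144 CPM with oxygen, a log2 fold change of 0.04 ± 0.20. The MVK estimate of 0.30 ± 0.31 was −0.08 without sevoflurane replicate 3.

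Oligodendrocyte-like cells had 4 of 7 positive estimates, against 51.5% of all genes, with a median of 0.05 (log2), and 0.0171% of 11676 genes were called there. MSMO1 had 27.9, 32.2 and 35.0 CPM with sevoflurane and 35.0, 36.7 and 35.2 CPM with oxygen, a log2 fold change of −0.19 ± 0.16 (adjusted p = 0.884, edgeR). MVK had 19.5, 20.3 and 15.9 CPM with sevoflurane and 15.8, 14.7 and 15 CPM with oxygen, a log2 fold change of 0.26 ± 0.19 (adjusted p = 0.836, edgeR). For both genes the groups did not overlap, MSMO1 being lower with sevoflurane and MVK higher, by less than 1 CPM at the nearest libraries; 5.96% and 8.07% of all genes were apart in those directions. INSIG1, at its highest in this class, had 16.3, 15.4 and 23.6 CPM with sevoflurane and 17.5, 19.6 and 18.8 CPM with oxygen.

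The smaller classes gave fewer values. In OPC-like cells 5 of the 7 genes were tested and 3 estimates were positive, against 49.9% of all genes, with 0.0221% of 9067 genes called. ACAT2 there had 25.2, 22.1 and 18.7 CPM with sevoflurane and 11, 9.15 and 19.1 CPM with oxygen, a log2 fold change of 0.73 ± 0.33 (adjusted p = 0.801, edgeR). In microglia-like cells 3 genes were tested, all with positive estimates against 49.9% of all genes, and 0.105% of 7615 genes were called. SREBF2 there had 106, 104 and 123 CPM with sevoflurane and 73.9, 71.5 and 102 CPM with oxygen, apart by a narrow gap as for 4.98% of all genes, with a log2 fold change of 0.42 ± 0.22 (adjusted p = 0.795, edgeR). In endothelial-like cells only SQLE and SREBF2 were tested, 1 with a positive estimate against 53.4% of all genes, and 0% of 6601 genes were called by edgeR (158 were higher and 134 lower at an unadjusted p under 0.05, and DESeq2 called 1). MVK was left out by the filter on low counts there (adjusted p = 0.348 by edgeR without the filter), with 0, 0 and 3 UMIs in the sevoflurane libraries and 9, 5 and 7 UMIs in the oxygen libraries; a count of 0 allows up to 9.54 and 15.4 CPM in sevoflurane replicates 1 and 2.

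Whether the response differed between classes was tested with limma on differences of log2 CPM within libraries, in 12 comparisons with 58 tests of the 7 genes. The 5 comparisons of GABAergic neuron-like cells minus a class other than astrocyte-like cells were added after the data were seen. None of the 58 tests passed, and 13 had an unadjusted p under 0.05 (limma). Over all genes 0.00767% passed for GABAergic minus glutamatergic neuron-like cells, 0.00908% for astrocyte-like minus glutamatergic neuron-like cells and 0% in the other comparisons. For GABAergic minus oligodendrocyte-like cells the estimates were 1.17 ± 0.34 for MSMO1 (log2, SE, adjusted p = 0.648, limma) and 1.20 ± 0.43 for INSIG1 (adjusted p = 0.717, limma). In this comparison 4 of the 7 genes had an unadjusted p under 0.05 (limma), beside 746 of all 11205 genes tested. For GABAergic minus glutamatergic neuron-like cells they were 0.87 ± 0.24 for MSMO1 (adjusted p = 0.866, limma), 0.59 ± 0.18 for ACAT2 (adjusted p = 0.884, limma) and 0.64 ± 0.21 for INSIG1 (adjusted p = 0.934, limma). There 3 of the 7 genes had an unadjusted p under 0.05 (limma), beside 697 of all 13041 genes tested. The difference of astrocyte-like minus oligodendrocyte-like cells was 0.99 ± 0.25 for MSMO1 (adjusted p = 0.526, limma), and that of astrocyte-like minus GABAergic neuron-like cells was −0.74 ± 0.27 for ACAT2 (adjusted p = 0.652, limma). For glia minus neurons, SQLE, ACAT2 and SREBF2 could be tested, at −0.11 ± 0.13, −0.37 ± 0.15 and 0.01 ± 0.11 (log2; adjusted p of 0.921, 0.743 and 0.986, limma). The responses of glia and neurons were thus not shown to differ.

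The rest of the pathway was described from lists of 51 other genes, of which 48 were in the table. These lists too were chosen with earlier results known, so their counts and medians are a description. Over the 7 classes 260 gene and class pairs were tested and 1 was called, in microglia-like cells, where 28 of these genes were tested. Over all genes tested, 0.105% were called in microglia-like cells and 0% to 0.114% in the other classes. The gene called was ELOVL5, a fatty acid elongase. It had 417, 493 and 412 CPM with sevoflurane and 185, 201 and 200 CPM with oxygen (log2 fold change 1.19 ± 0.17, adjusted p = 0.0249, edgeR, and 4.24e-05 to 0.286 over the alternatives). It no longer passed without oxygen replicate 1, 2 or 3 (adjusted p of 0.278, 0.205 and 0.286, edgeR) or without sevoflurane replicate 1 (adjusted p = 0.0525, edgeR).

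In GABAergic neuron-like cells 14 of 14 tested synthesis enzymes outside the 7 had positive estimates, as for 50.5% of all genes, with a median of 0.53 (log2). Of these, 4 were higher at an unadjusted p under 0.05 (edgeR), against 6.14% of all genes, and 0 were called, against 0.114%. EBP, the isomerase that shifts a double bond in the sterol ring, had 24.5, 26.6 and 25.5 CPM with sevoflurane and 11.7, 15 and 14.8 CPM with oxygen. The groups did not overlap, as for 12.8% of all genes tested in this class with sevoflurane higher. Its log2 fold change was 0.82 ± 0.16 (adjusted p = 0.117, edgeR). PMVK, the kinase after MVK, stood at 0.03 ± 0.10 and GGPS1, which makes geranylgeranyl diphosphate outside the sterol branch, at 0.02 ± 0.16. The other lists had lower medians: the 11 regulators had 6 positive estimates with a median of 0.00163, and the 7 tested uptake and transport genes had 4 with a median of 0.0049. The 7 tested fatty acid genes had 5 with a median of 0.161, and the 6 tested efflux and turnover genes had 3 with a median of −0.0376. For 3 of the 11 regulators sevoflurane was higher without overlap, against 12.8% of all genes. Of the 7 tested uptake and transport genes, 1 was higher at an unadjusted p under 0.05 (edgeR), against 6.14% of all genes. VLDLR, a lipoprotein receptor, stood at −0.38 ± 0.17 (adjusted p = 0.444, edgeR) and ELOVL5 at −0.30 ± 0.24 (adjusted p = 0.704, edgeR).

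**Figure D5:**
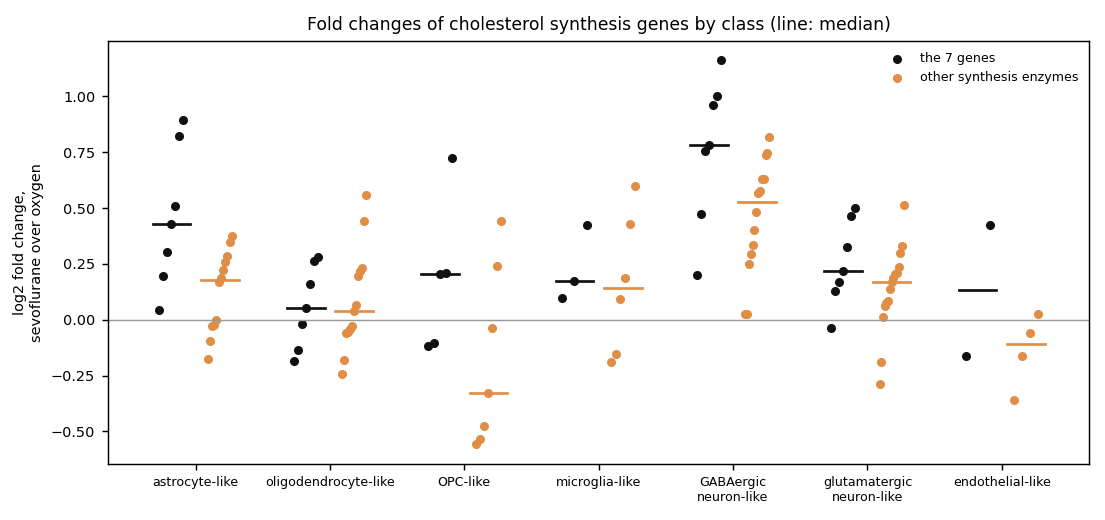
Log2 fold change of sevoflurane over oxygen for the tested genes of the 7 (black) and the other tested synthesis enzymes (orange) in each class, with a line at the median. In GABAergic neuron-like cells every point is above 0, with medians of 0.78 and 0.53, and in the other classes the orange points lie on both sides of 0.

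In astrocyte-like cells 7 of 12 tested synthesis enzymes were positive, against 49.6% of all genes, with a median of 0.18. LRP8, an apolipoprotein E receptor, stood at −0.83 ± 0.33 (adjusted p = 0.697, edgeR) and SREBF1, which drives fatty acid genes, at −0.51 ± 0.21 (adjusted p = 0.709, edgeR). MBTPS1, a protease that cuts SREBPs, stood at 0.26 ± 0.18.

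In oligodendrocyte-like cells 7 of 13 synthesis enzymes were positive, against 51.5% of all genes, with a median of 0.04. All 7 tested fatty acid genes were negative there with a median of −0.19, as they were in glutamatergic neuron-like cells (median −0.19). ABCG1, a sterol exporter, had 67.9, 63.4 and 64.1 CPM with sevoflurane and 88.6, 87.3 and 90.3 CPM with oxygen (−0.47 ± 0.12, adjusted p = 0.457, edgeR). The groups did not overlap there, as for 5.96% of all genes with sevoflurane lower. In OPC-like cells ABCG1 stood on the other side, with 162, 165 and 176 CPM with sevoflurane and 102, 95.5 and 90.6 CPM with oxygen, again without overlap, as for 7.06% of all genes with sevoflurane higher (0.78 ± 0.13, adjusted p = 0.113, edgeR). The difference between these classes was not tested for ABCG1, and it passed the threshold in neither. NPC1, which moves cholesterol out of lysosomes, had 344, 333 and 326 CPM with sevoflurane and 217, 282 and 255 CPM with oxygen in oligodendrocyte-like cells (0.39 ± 0.12, adjusted p = 0.502, edgeR). MBTPS1 stood at 0.32 ± 0.13 and ELOVL6, a fatty acid elongase, at −0.61 ± 0.23 in that class.

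In glutamatergic neuron-like cells 13 of 15 synthesis enzymes were positive, against 53.1% of all genes, with a median of 0.17. ABCA1, another sterol exporter, had 54.6, 66.0 and 71.8 CPM with sevoflurane and 44, 38.8 and 34.3 CPM with oxygen (0.61 ± 0.14, adjusted p = 0.504, edgeR), and LRP8 had 45.7, 48.6 and 47.3 CPM with sevoflurane and 59.4, 77.3 and 53.9 CPM with oxygen (−0.54 ± 0.16, adjusted p = 0.559, edgeR). The groups did not overlap for either gene, ABCA1 being higher with sevoflurane as for 12.9% of all genes tested in this class and LRP8 lower as for 4.08%. NPC1 and ELOVL6 stood at 0.22 ± 0.10 and −0.52 ± 0.18 in this class. In OPC-like cells 2 of 7 synthesis enzymes were positive, against 49.9% of all genes, with a median of −0.33. NPC1, ELOVL6 and PMVK stood at 0.40 ± 0.21, −0.41 ± 0.18 and −0.33 ± 0.16 there.

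In microglia-like cells 4 of 6 synthesis enzymes were positive, against 49.9% of all genes, with a median of 0.14. FDPS, which makes farnesyl diphosphate, had 23.6, 33.0 and 26.3 CPM with sevoflurane and 17.4, 18.3 and 18.6 CPM with oxygen (0.60 ± 0.33, adjusted p = 0.841, edgeR). LRP1, an endocytic lipoprotein receptor, had 255, 255 and 278 CPM with sevoflurane and 370, 499 and 417 CPM with oxygen (−0.69 ± 0.17, adjusted p = 0.294, edgeR). The groups were apart for both without passing the threshold, as for 4.98% of all genes tested with sevoflurane higher and 7.93% with sevoflurane lower. ERLIN1 and ELOVL6 stood at 0.65 ± 0.37 and −1.07 ± 0.48 in these cells. In endothelial-like cells 1 of 4 synthesis enzymes was positive, against 53.4% of all genes. ABCA1 there had 92.2, 624 and 108 CPM with sevoflurane and 38.9, 81.1 and 55.5 CPM with oxygen, with sevoflurane replicate 2 far above the rest (2.34 ± 0.78, adjusted p = 0.9996, edgeR). LRP1, LRP8 and ELOVL6 stood at 0.93 ± 0.40, −0.98 ± 0.49 and −0.58 ± 0.34 in this class.

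In all cells together 6 of the 7 genes had positive estimates, against 52.6% of all genes, with a median of 0.30 (log2) beside 0.0158 over all genes tested. None of the 7 was called by edgeR, which called 0% of all genes (838 were higher and 1104 lower at an unadjusted p under 0.05), or by DESeq2, which called 418 genes. Their sum was 166, 239 and 242 CPM with sevoflurane and 176, 196 and 192 CPM with oxygen, so that sevoflurane replicate 1 was the lowest library of all. Such a total also moves with the mix of cell classes, which differed between libraries. Astrocyte-like cells, for one, were 8.58%, 7.50% and 7.89% of the cells of the sevoflurane libraries and 10.6%, 14.5% and 17.0% of the oxygen libraries. The part of this mix in the total was not tested. Among the other pathway genes, IDI1 and ABCA1 stood at 0.45 ± 0.20 and 0.27 ± 0.09, and LRP8 and ELOVL6 at −0.45 ± 0.13 and −0.44 ± 0.12; none was called.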

How the data were processed

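The authors deposited UMI counts that were not normalised, 1 whole number for each gene in each barcode. Per the file headers these came from Cell Ranger 6.1.1, and per the submitters' processing notes CASAVA 1.8 made the base calls and Seurat was also used. As the genome build is not given in the sources used here, no coordinates or sequences are printed. The 3′ libraries came from collagenase-digested, cryopreserved suspensions, per the labels' protocols. Every barcode had at least 500 UMIs and 200 genes. Of the genes, 15188 carried a symbol in the file and 1397 took one from a gene name table.

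Doublets were scored per library with scrublet (scanpy 1.11.5). The automatic threshold of 1 library marked only 0.150% of its barcodes, so the median threshold, 0.190, was applied to all and marked 2238. Free RNA was not removed. Leiden clustering (resolution 1, 15 neighbours, 30 principal components of 2000 variable genes, no integration) left the pathway genes out. Names needed a marker score of 0.25, at least 3 markers detected in 10% of cells and a next-best score below 0.6 of the best, limits set with these data in view.

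Counts were summed per library and class and tested with the quasi-likelihood test of edgeR 4.0.16 (R 4.3.3; TMM, filterByExpr) on the whole table with Benjamini-Hochberg adjustment; SEs follow from the fold change and F. Differences between classes used limma 3.58.1 on log2 CPM with a prior count of 2. On simulated counts with 4-fold changes (log2 of 2), 91.0% of 200 changed genes were recovered among 13105 in GABAergic neuron-like cells, with 13 false calls. Over the classes it was between 64.5% (of 200 among 17306, glutamatergic neuron-like) and 94.5% (of 200 among 11114, astrocyte-like). The estimates of the 7 genes in GABAergic neuron-like cells were smaller, 0.20 to 1.16 (log2), and recovery at such sizes was not tested. Alternatives were DESeq2 1.42.0, other size factors, no filter, no doublet removal, resolution 0.5, pathway genes kept in clustering, mean log values, a replicate block and each library left out; dropping clusters over 75% from 1 library, the neuron clusters alone and 5 of the class comparisons were added after seeing the data. The genes and lists were chosen with earlier results of these data known. All 7 genes are named everywhere; of the pathway lists, called genes and the 2 of smallest p per direction and class are named, except a few that are not reported here, while PMVK and GGPS1 in GABAergic neuron-like cells were chosen after their values were seen. Likeness was ranked among genes with a symbol and at least 10 CPM in a class.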

Additional observations from a re-analysis of the deposited data

How the results depend on the processing

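Of 621 alternative fold changes of the 7 genes, 585 kept their direction and side of the threshold, 2 passed it newly and 34 changed sign. The count of called genes among the 7 in GABAergic neuron-like cells, 0 by edgeR, was 1 with DESeq2 and 1 without a filter on low counts, MVK in both; it was 0 in every other class and alternative. The count at an unadjusted p under 0.05 there lay between 2 and 6 when each library was left out. Scaled to total UMIs, the glia-to-neuron ratios of MVK, MSMO1, SQLE, ACAT2 and SREBF2 kept their direction under every alternative. Those of HMGCS1 and INSIG1 lay within 1 SD of even, so a turn was looked for only with each library left out. They kept their direction there (log2 −0.178 to −0.0158 and 0.328 to 0.819). Counted per cell, the ratios of all 7 genes were below 1. The direction thus depended on the scale for MSMO1, SQLE, ACAT2, SREBF2 and INSIG1, and not for MVK and HMGCS1. Signs of the fold changes turned only for small estimates (log2). Leaving out each library gave −0.42 to 0.0748 for MSMO1, −0.36 to 0.15 for SREBF2 and −0.068 to 0.34 for SQLE in OPC-like cells; −0.0917 to 0.22 for SREBF2 and −0.0837 to 0.55 for MVK in astrocyte-like cells; and −0.46 to 0.0742 for SREBF2 in endothelial-like cells. It gave −0.013 to 0.36 for MSMO1, −0.17 to 0.0857 for SREBF2 and −0.11 to 0.35 for SQLE in glutamatergic neuron-like cells; −0.24 to 0.31 for SQLE and −0.26 to 0.49 for ACAT2 in microglia-like cells; −0.29 to 0.11 for INSIG1, −0.36 to 0.19 for HMGCS1 and −0.0401 to 0.14 for SREBF2 in oligodendrocyte-like cells; and −0.16 to 0.13 for SREBF2 and −0.018 to 0.36 for SQLE in all cells. With mean log values MSMO1 (0.000659) and SREBF2 (0.00131) in OPC-like cells, SREBF2 in glutamatergic neuron-like cells (0.011), and SQLE (−0.00785) and ACAT2 (−0.00214) in microglia-like cells turned. So did MSMO1 in OPC-like cells without doublet removal (0.0519), and, without the clusters mostly of 1 library, MSMO1 in glutamatergic neuron-like cells (−0.108) and SREBF2 in oligodendrocyte-like cells (−0.00566). The cause was not tested.

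The labels do not say what equal replicate numbers share. Same-numbered libraries had correlations of −0.28, −0.13 and −0.32 in all cells, and at most 0.127 in any class (endothelial-like), so no pairing was assumed. With a replicate block, the count at an unadjusted p under 0.05 in GABAergic neuron-like cells was 5 in place of 6, 0 of the 7 genes were called, and ELOVL5 in microglia-like cells no longer passed, nor did it with mean log values or when any 1 of 4 libraries was left out (the 3 oxygen libraries and sevoflurane replicate 1). Counts of called genes over the whole table moved more: 15 in GABAergic neuron-like cells by edgeR became 197 with DESeq2, 252 without the filter, 1 without doublet removal, 0 with the block and 0 to 21 with a library left out; for astrocyte-like cells, 2 became 38, 163, 2, 0 and 0 to 4. At resolution 0.5 no endothelial-like class was formed, so no value was obtained there. The filter on low counts left out 11 gene and class pairs: INSIG1 and HMGCS1 in OPC-like, microglia-like and endothelial-like cells, MVK and MSMO1 in the last 2 and ACAT2 in endothelial-like cells. Alternatives that tested them gave adjusted p of at least 0.348.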
